A study of Bos grunniens with 18 samples.

Results

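MicroRNAs (miRNAs) of yak testis were compared between males aged 4 years (Y4Y) and 6 months (Y6M). All entries of the deposited miRNA table were taken, by name, in the 3 small RNA libraries of each age, so that 6 of the 18 libraries of the series carry the comparison and 3 small RNA libraries of 18-month-old males serve only in an alternative fit. The table lists 1536 miRNA entries, of which 853 had enough counts to be tested. The animals were healthy male yaks (Bos grunniens) of 1 cooperative, castrated under anaesthesia, with 3 animals per age. Each age has 3 small RNA and 3 long RNA libraries, and the protocol describes ribosomal RNA removal without setting out the small RNA preparation separately. The labels name no other treatment and no genotype. The titles and the protocol give these ages, whereas another label calls Y4Y infancy and Y6M adolescence, and the titles were followed. Each library comes from frozen testicular tissue with all its cell types, so a lower level can mean fewer cells of a type or less of the RNA per cell, and these cannot be told apart.

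A miRNA is a short RNA cut from a hairpin precursor by DROSHA in the nucleus and DICER1 in the cytoplasm, and either strand of the hairpin (the 5p or the 3p arm) can be loaded onto an Argonaute protein. Bases 2 to 8, the seed, pair with messenger RNAs, whose translation or stability then falls, so miRNAs that share a seed can reach many of the same targets. In the testis, miRNAs are made by germ cells as well as by Sertoli, Leydig, peritubular and vascular cells. The miR-34 and miR-449 family is known from meiotic and later germ cells and from ciliated epithelia, and a fast-evolving miRNA cluster on the X chromosome, the miR-506 family, is known from testis. The entries carry 3 classes that the files do not define. Class exist (558 entries) has cattle names (bta-), class known (717) has family names that end in x, y or z, and another class (261) has serial numbers for names. No genome of the files' build was at hand, so no coordinates are given.

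The sequences on which the results turn are those the table lists, written 5′ to 3′ as DNA letters with the seed in capitals. The first set shows the miR-34 and miR-449 entries, most of which share 1 seed, followed by the other entries with the clearest rise.
bta-miR-34c: aGGCAGTGtagttagctgattg
bta-miR-34b: aGGCAGTGtaattagctgattg
bta-miR-34a: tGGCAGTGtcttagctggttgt
bta-miR-449a: tGGCAGTGtattgttagctggt
bta-miR-449b: aGGCAGTGtattgttagctggc
miR-34-x: aGGCAGTGtagttagctgattgca
miR-34-y: aATCACTAgttccactgccatc
bta-miR-146b: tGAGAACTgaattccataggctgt
bta-miR-146a: tGAGAACTgaattccataggttgt
bta-miR-375: tTTTGTTCgttcggctcgcgtga
bta-miR-507-3p: aTTGGCATgtcttggaatgaa
bta-miR-507b: tGATTGGTacttcttagagtgga
miR-507-y: tGATTGGCatttcttagagtgga

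The second set shows entries that share a seed but did not move together: let-7a with let-7f, miR-99a with miR-100, miR-15b and miR-16b with miR-424, and miR-92a with miR-25. It ends with both arms of the miR-202 hairpin.
bta-let-7a-5p: tGAGGTAGtaggttgtatagtt
bta-let-7f: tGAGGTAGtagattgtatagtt
bta-miR-99a-5p: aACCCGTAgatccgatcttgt
bta-miR-100: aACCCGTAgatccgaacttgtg
bta-miR-15b: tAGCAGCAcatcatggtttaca
bta-miR-16b: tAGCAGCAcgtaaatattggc
bta-miR-424-5p: cAGCAGCAattcatgttttga
bta-miR-92a: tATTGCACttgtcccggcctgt
bta-miR-25: cATTGCACttgtctcggtctga
bta-miR-202: tTCCTATGcatatacttcttt
miR-202-y: aGAGGTGTagggcatgggaa

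The miRNA counts summed to 7.53, 8.38 and 6.18 M in the 4-year libraries and 8.23, 9.68 and 7.96 M in the 6-month libraries. Libraries of 1 age correlated at r = 0.989 to 0.992 on log2 CPM over the tested entries and libraries of different ages at 0.856 to 0.876. The long RNA libraries of the same ages gave the tissue markers. The spermatid genes PRM1 and TNP1, which package sperm chromatin, stood at 441 ± 54 and 920 ± 134 CPM at 4 years and at 0.276 ± 0.0589 and 0.487 ± 0.541 CPM at 6 months (SD, n = 3). All 6 germ cell markers were higher at 4 years, 4 of 5 Sertoli cell markers were lower (AMH -7.21 ± 0.27 on the log2 scale) with CLDN11 higher (4.68 ± 0.57), and all 4 Leydig cell markers were lower (INSL3 -1.65 ± 0.25). What these changes in cell markers contribute to the miRNA differences below was not tested. Of the epididymis and efferent duct markers AQP1, which vessels also express, was present at both ages (20.9 ± 7.01 CPM at 4 years and 16.8 ± 5.28 CPM at 6 months, not called), CRISP1, DEFB123 and CDH16 were too low to test, and LCN5 was not matched.

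The 2 ages differed widely. Here and below, CPM are counts per 1 M counts after TMM scaling, given as mean ± SD with n = 3 animals per age, and changes are log2 fold changes (4 years over 6 months) ± SE from edgeR, called at an adjusted p under 0.05. Of the 853 entries tested, 603 (70.7%) were called, 327 higher (38.3%) and 276 lower (32.4%) at 4 years. With at least a 2-fold change, 253 were higher (29.7%) and 207 lower (24.3%), and the levels of the ages did not overlap for 634 entries (74.3%). The median change over all tested entries was 0.06. Because so many entries moved, each group below is to be read against these shares. Rises reached further than falls, as the plot of all tested entries shows. bta-miR-449a, bta-miR-34c and bta-miR-146b rose by more than 7 log2 units while being or becoming abundant, whereas miR-665-x was the only entry under -5. However, 2 tested entries of class exist, 15 of class known and 22 of the class with serial numbers had no count at 6 months. In each class 0 tested entries lacked a count at 4 years. Such entries passed the filter on low counts only through the 4-year libraries, and their fitted rises depend on the prior count. Entries with a few counts at either age could also pass through the other age alone. The shares above and the reach of the rises include them.

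**Figure D1:**
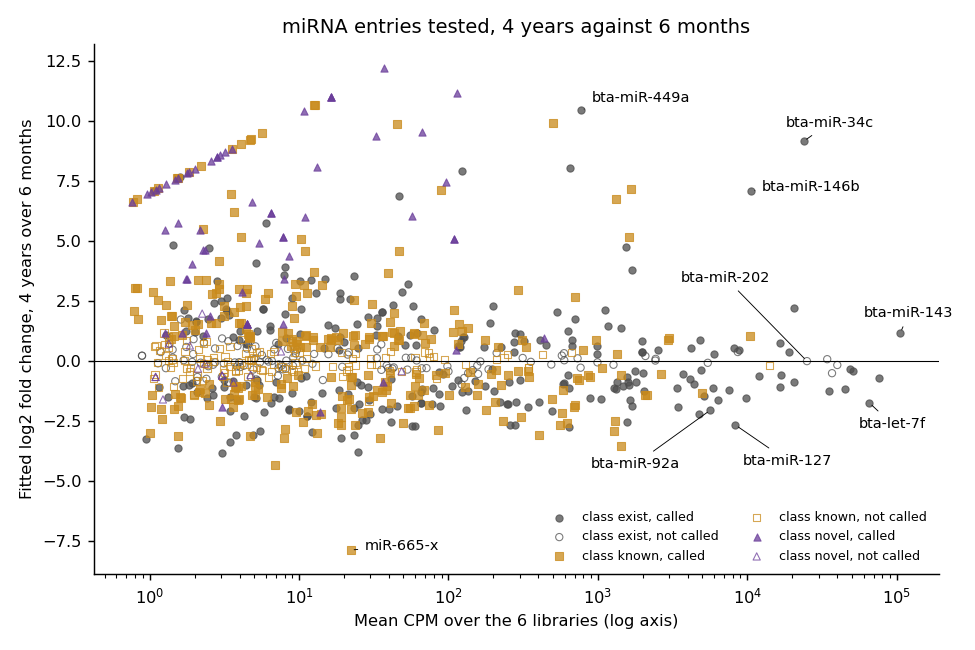
Fitted log2 fold change, 4 years over 6 months (y axis), against the mean CPM over the 6 libraries (x axis, log scale) for the 853 tested miRNA entries, with class by symbol (triangles for the class with serial numbers) and filled symbols for entries called at an adjusted p under 0.05. The straight upper edge at low CPM is formed by entries with no counts at 6 months, whose fitted change depends on the prior count and is no bound, and 327 entries were called higher and 276 lower.

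The miR-34 and miR-449 family showed the steepest rise. Its 11 tested entries, of 12 listed, were all called higher, with a median change of 9.22 (7.72 with the 4 entries that had no counts at 6 months set at their bound, which passed the filter on low counts only through the 4-year libraries), against 0.06 over all tested entries. bta-miR-449a, bta-miR-34b, bta-miR-34a, miR-34-x and miR-449-x, with means of at most 1.04 CPM at 6 months, also passed it only through the 4-year libraries. The count of calls and both medians thus rest largely on entries admitted by their 4-year level. The 11 entries together went from 109.8 ± 53.7 CPM at 6 months to 53895 ± 6620 CPM at 4 years (SD, n = 3). bta-miR-34c made up most of this: it had 41241, 53986 and 47678 CPM in the 4-year libraries and 34.7, 113 and 100.5 CPM in the 6-month libraries. Every 4-year library was far above every 6-month library, a change of 9.17 ± 0.49 (adjusted p = 6.65e-07), and the entry was the third most abundant at 4 years. Y6M replicate 1 was the lowest of its age for bta-miR-34c, bta-miR-34b and bta-miR-449a.

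bta-miR-449a, which in mammals lies in an intron of CDC20B, had 1541, 1606 and 1448 CPM at 4 years and 0.541, 1.24 and 1.35 CPM at 6 months, a change of 10.48 ± 0.26 (adjusted p = 4.1e-09). bta-miR-34b, processed from the same precursor transcript as miR-34c in mammals, had 245, 259 and 236 against 0.27, 1.45 and 1.21 CPM (7.91 ± 0.35, adjusted p = 2.15e-07). bta-miR-34a, the family member that is a well-known p53 target and is made from its own gene, rose least: 13.2, 16.1 and 16 CPM at 4 years against 0.676, 0.93 and 1.35 CPM at 6 months (3.92 ± 0.28). The longer form miR-34-x, which ends 2 bases after bta-miR-34c, rose with it (from 0.987 ± 0.508 to 993 ± 61.7 CPM). The entry miR-34-y, whose seed is another one, rose from 22.9 ± 9.84 to 3334 ± 183 CPM. Against the floor of 3 counts over the 3 libraries of 6 months, bta-miR-449b was at least 17.1-fold higher at 4 years, miR-34-z at least 92.4-fold, miR-449-z at least 75.7-fold and miR-449-y at least 211-fold. The 9 tested entries with the seed GGCAGTG summed to 86.9 ± 44 CPM at 6 months and 50535 ± 6437 CPM at 4 years (SD, n = 3).

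**Figure D2:**
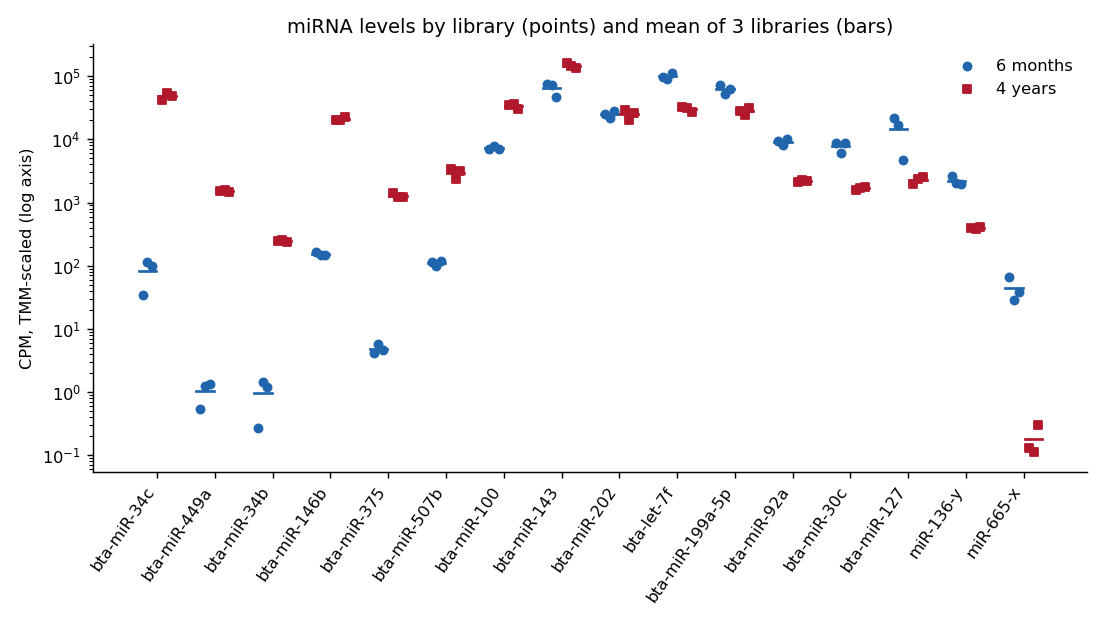
TMM-scaled CPM (y axis, log scale) of 16 miRNA entries in each small RNA library, with circles for the 3 libraries of 6 months, squares for the 3 libraries of 4 years and a bar at each mean. bta-miR-34c, bta-miR-449a, bta-miR-146b and bta-miR-375 lie far higher at 4 years, bta-miR-202 overlaps between the ages, and bta-miR-127 has 1 library of 6 months (4687 CPM) well below the other two.

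miR-146 and miR-375 rose nearly as far. bta-miR-146b had 20344, 20290 and 22679 CPM at 4 years and 164, 149 and 149 CPM at 6 months. The replicates of each age lay close together, the change was 7.10 ± 0.15, and its adjusted p of 2.43e-09 was the smallest of the comparison. bta-miR-146a shares its seed, comes from another gene and rose less, from 607, 424 and 207 CPM at 6 months to 1536, 1551 and 2378 CPM at 4 years (2.14 ± 0.35, adjusted p = 0.0005). miR-146-y, with another seed, rose by 7.15 ± 0.26, close to bta-miR-146b. All 5 tested miR-146 entries were called higher (median 3.17). bta-miR-375, known for its place in pancreatic islets and other secretory epithelia, had 1400, 1239 and 1223 CPM at 4 years and 4.19, 5.68 and 4.72 CPM at 6 months (8.03 ± 0.19, adjusted p = 3.94e-09).

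The miR-506 family followed. In mammals its genes lie side by side on the X chromosome. All 7 tested entries, of 9 listed, were called higher, with a median of 4.59 and a range of 2.82 to 5.16, and the levels of the ages overlapped in none of them. Of the 7, miR-513-y, miR-507-z and miR-508-x had means of 0.577, 0.649 and 0.407 CPM at 6 months. They passed the filter on low counts only through the 4-year libraries. The sum of the 7 went from 431 ± 32.4 to 9397 ± 1485 CPM. The 3 abundant miR-507 entries carried nearly all of it, and they do not share a seed. bta-miR-507-3p had 3792, 2870 and 2820 CPM at 4 years and 263, 226 and 198 CPM at 6 months (3.79 ± 0.18, adjusted p = 3.11e-07). bta-miR-507b had 3422, 2359 and 3141 against 113, 97.3 and 117 CPM (4.77 ± 0.19), and miR-507-y had 3389, 2454 and 3586 against 85.4, 77.3 and 100.5 CPM (5.16 ± 0.20). At 4 years each of these was about as abundant as the others, and Y4Y replicate 2 was the lowest library for bta-miR-507b and miR-507-y. Another X-linked group, the miR-532 to miR-660 cluster in the gene CLCN5, did not share the rise: of 16 tested entries 1 was higher, 7 were lower and 8 were not called, with a median of -0.29 (2 higher without Y6M replicate 3). Its most abundant entry, bta-miR-660, had 694 ± 11.9 CPM at 4 years and 839 ± 87.8 CPM at 6 months (-0.27 ± 0.13, adjusted p = 0.0758).

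Some smaller groups had most of their tested entries higher. The cluster of miR-183, miR-96 and miR-182, known from sensory cells and germ cells, had 4 of 4 tested entries higher (median 3.11), among them bta-miR-182 (11.8 ± 1.31 to 86.5 ± 15.7 CPM, 2.87 ± 0.20) and bta-miR-96 (1.78 ± 0.533 to 18.6 ± 0.714 CPM, 3.35 ± 0.25). All 6 tested entries of miR-221 and miR-222 were higher (median 1.52). Of miR-204 and miR-211, 3 of 5 were higher and 2 not called, and bta-miR-204, which lies in an intron of TRPM3, had 2219, 1273 and 1664 CPM at 4 years and 546, 558 and 744 CPM at 6 months. In the miR-29 family 6 of 7 tested entries were higher (median 1.10), among them bta-miR-29b (1.29 ± 0.15), but the most abundant one, bta-miR-29a, was not called (1929 ± 164 to 2232 ± 167 CPM, 0.21 ± 0.12, adjusted p = 0.155). Only 1 entry of the embryonic clusters miR-302 and miR-371 was tested, miR-371-x, which was higher but low (0.975 ± 0.276 to 8.06 ± 1.49 CPM). It passed the filter on low counts only through the 4-year libraries. The same holds for miR-182-x, miR-221-z, bta-miR-211 and miR-29-z in the counts above (0.0794, 0.44, 0.18 and 0.75 CPM at 6 months).

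**Figure D3:**
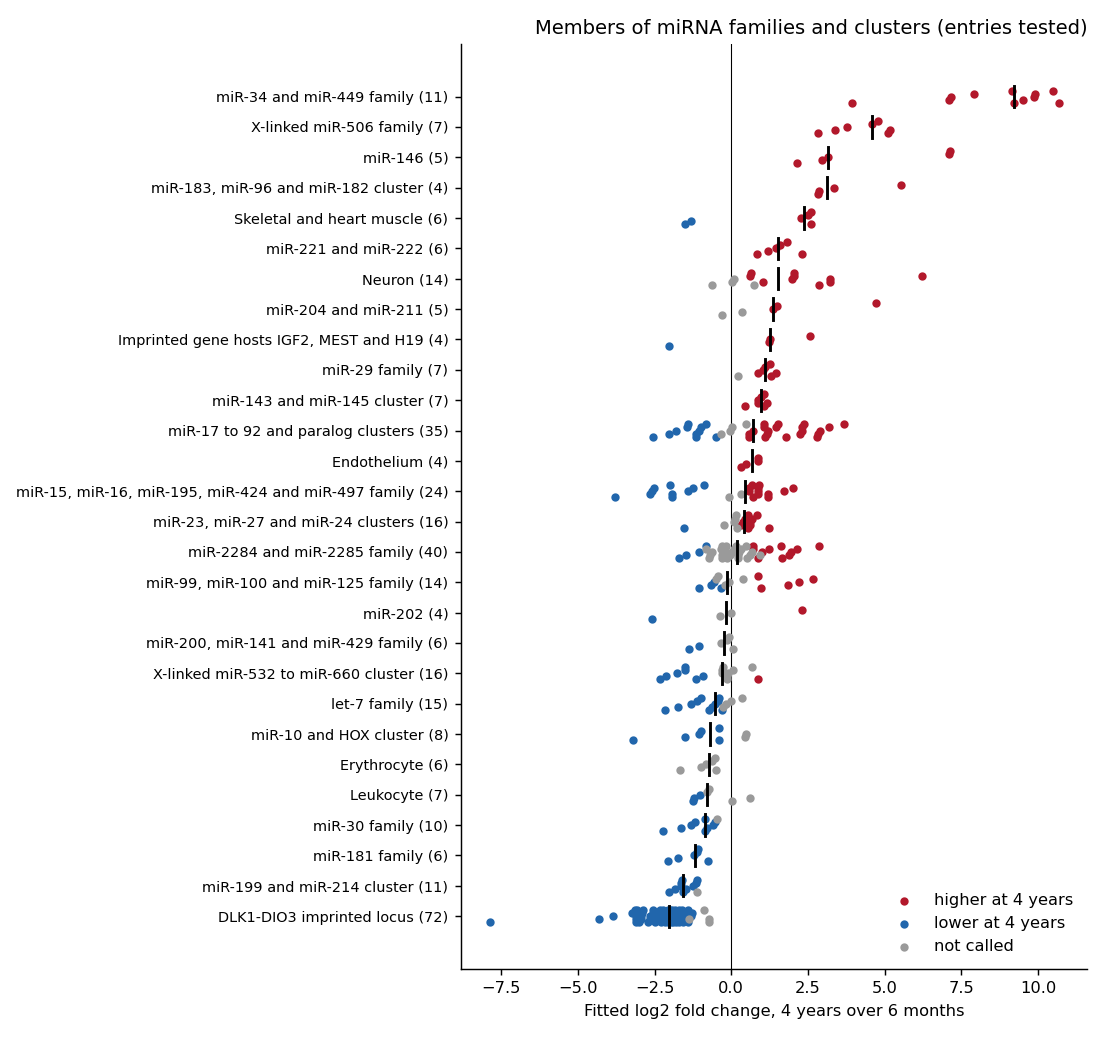
Fitted log2 fold change, 4 years over 6 months (x axis), of each tested entry in families, clusters and cell type lists with at least 4 tested entries (y axis, number tested in parentheses), coloured by call, with a black bar at each list's median. The miR-34 and miR-449 family has a median of 9.22 and the DLK1-DIO3 locus a median of -2.03, and the miR-17 to 92 and the miR-15 families hold entries called in both directions.

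Most of the top entries were shared between the ages. Of the 10 most abundant entries at 4 years, 8 are also among the 10 at 6 months. bta-miR-34c and bta-miR-100 joined at 4 years, and bta-miR-199a-5p and bta-miR-148a were in the list at 6 months only. bta-miR-143, a marker of smooth muscle-like cells, became the most abundant, with 158928, 146223 and 133661 CPM at 4 years and 76095, 71966 and 47312 CPM at 6 months (1.17 ± 0.18, adjusted p = 0.000353), and bta-miR-145 of the same cluster went from 3425 ± 592 to 6241 ± 1297 CPM (0.87 ± 0.18). All 7 tested entries of that cluster were higher (median 0.96). bta-let-7f, the most abundant at 6 months, had 98630, 91210 and 112735 CPM then and 32729, 31265 and 26661 CPM at 4 years (-1.74 ± 0.14, adjusted p = 5.15e-06), and bta-miR-26a fell by less (94613 ± 5698 to 58390 ± 2778 CPM, -0.70 ± 0.11). bta-miR-10b (-0.41 ± 0.11) was slightly lower, a call lost when scaled by library size alone (-0.23, adjusted p = 0.069 in edgeR). Neither bta-miR-27b (0.08 ± 0.12, adjusted p = 0.581) nor bta-miR-125b (-0.50 ± 0.25, adjusted p = 0.0931) was called, although bta-miR-125b was without Y4Y replicate 3.

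The let-7 family, whose maturation LIN28 proteins block, had 11 of 15 tested entries lower and 4 not called (1 entry was higher without Y4Y replicate 3), with a median of -0.53, and its sum went from 178325 ± 10674 to 91207 ± 5257 CPM. The fall was uneven among members that share the seed GAGGTAG. bta-let-7f carried most of it, bta-let-7d fell from 875 ± 211 to 405 ± 23.5 CPM and bta-let-7b from 14604 ± 1870 to 9398 ± 369 CPM. bta-let-7a-5p, which differs from bta-let-7f by 1 base, had 40739, 42218 and 43951 CPM at 6 months and 36757, 39904 and 36643 CPM at 4 years. Its levels did not overlap, but the change of -0.16 ± 0.11 was not called (adjusted p = 0.205). How the authors assigned reads between such near-identical sequences is not given in the sources used here. In the long RNA libraries LIN28B rose from 1.99 ± 0.13 to 17.5 ± 2.85 CPM (3.14 ± 0.21, adjusted p = 7.79e-07), and LIN28A was too low to test.

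miR-99, miR-100 and miR-125 precursors lie beside let-7 genes in mammals, and they did not fall as let-7 did: 5 of 14 tested entries were higher, 4 lower and 5 not called (median -0.13). bta-miR-100 rose from 7028, 7767 and 7027 CPM to 35112, 36469 and 30340 CPM (2.22 ± 0.13, adjusted p = 8.86e-07), and no library of 1 age came near the other age. bta-miR-99a-5p, with the same seed, had 54201 ± 1366 CPM at 6 months and 42537 ± 5070 CPM at 4 years (-0.35 ± 0.12, adjusted p = 0.0286), a call that was lost in most alternative fits and without any 1 library other than Y4Y replicate 1. Without Y4Y replicate 2, 2 entries of the family were lower. Entries with the seed ACCCGTA summed to 85470 ± 3650 CPM at 6 months and 98396 ± 7114 CPM at 4 years (SD, n = 3), and bta-miR-99a-5p made up 63.4% of that sum at 6 months and 43.2% at 4 years.

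Other families also held members of 1 seed that moved in opposite directions. Of 66 seeds with at least 3 tested entries, 10 had entries called both higher and lower. The widest was AGCAGCA of the miR-15, miR-16 and miR-424 family, miRNAs that restrain cyclins and BCL2, with 9 entries higher and 3 lower. bta-miR-15b rose from 235, 202 and 187 to 785, 886 and 879.9 CPM (2.03 ± 0.14) and bta-miR-16b from 341, 322 and 306 to 1064, 1010 and 1149 CPM (1.73 ± 0.12), while bta-miR-424-5p fell from 5896, 4868 and 5698 to 1731, 1201 and 1385 CPM (-1.93 ± 0.16, adjusted p = 7.97e-06). bta-miR-424-5p held 67.3% of the summed CPM of this seed at 6 months and 26.1% at 4 years, and the sum went from 8154 ± 739.8 to 5511 ± 332 CPM. miR-503, which lies beside miR-424 on the X chromosome in mammals, fell with it (bta-miR-503-5p -1.25 ± 0.18, miR-503-x -2.51 ± 0.17).

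The miR-17 to 92 cluster and its paralogs are polycistrons, several hairpins on 1 transcript, known for their part in proliferation. Of 35 tested entries 20 were higher, 11 lower and 4 not called (median 0.70), yet their summed level fell from 21415 ± 2404 to 9786 ± 336 CPM, and its most abundant entry at 6 months, bta-miR-92a, was among those that fell. bta-miR-92a had 9353, 8010 and 9985 CPM at 6 months and 2122, 2286 and 2224 CPM at 4 years (-2.04 ± 0.13, adjusted p = 1.53e-06). bta-miR-19b changed by -1.16 ± 0.12. In contrast, bta-miR-18a (12.6 ± 0.633 to 36.4 ± 4.23 CPM, 1.53 ± 0.18) and bta-miR-93 (171 ± 24.2 to 389 ± 37 CPM, 1.18 ± 0.15) rose. The 35 entries were taken by miRNA number, so they and their sum include bta-miR-92b (-2.54 ± 0.16). Whether bta-miR-92b lies in any of these clusters was not checked. bta-miR-25 has the seed of bta-miR-92a, ATTGCAC, and was not called, with 2248, 2713 and 2363 CPM at 4 years and 2802, 2103 and 2310 CPM at 6 months (0.02 ± 0.14, adjusted p = 0.904). Entries with that seed summed to 17602 ± 2208 CPM at 6 months and 6649 ± 289 CPM at 4 years, 3 of the 9 higher and 5 lower.

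Several families had most of their tested entries lower. miR-199 and miR-214 come from antisense transcripts of dynamin genes and mark mesenchymal cells. Of their 11 tested entries 10 were lower and 1 was not called (median -1.58). bta-miR-199a-5p had 71548, 52851 and 61828 CPM at 6 months and 28219, 24210 and 31328 CPM at 4 years (-1.15 ± 0.15, adjusted p = 0.000124), bta-miR-199a-3p fell from 9549 ± 2642 to 3107 ± 291 CPM and bta-miR-214 from 285 ± 61.4 to 119 ± 13.1 CPM. All 6 tested miR-181 entries were lower (median -1.17), from bta-miR-181a (8133 ± 1102 to 3741 ± 410.1 CPM) to bta-miR-181b (-2.06 ± 0.18). bta-miR-574, from an intron of FAM114A1 in mammals, fell from 510.5, 442 and 501 CPM to 71.9, 80.9 and 77.5 CPM, and its adjusted p of 5.85e-07 was the smallest among entries that fell. Of the miR-10 and HOX cluster miRNAs, which lie among the HOX genes, 6 of 8 were lower and 2 not called (bta-miR-196a 0.48 ± 0.64 and miR-196-y 0.45 ± 0.71), with bta-miR-10a at 1960, 836 and 1136 CPM at 6 months and 516, 450.2 and 406 CPM at 4 years (-1.52 ± 0.28).

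The DLK1-DIO3 locus is an imprinted region whose miRNAs are read from the maternal chromosome. Of 112 listed entries 72 were tested, 68 were lower and 4 were not called (median -2.03), and their sum fell from 26862 ± 9165 to 4955 ± 617 CPM. bta-miR-127, which had 21428, 16956 and 4687 CPM at 6 months and 1964, 2350 and 2491 CPM at 4 years, varied widely between the animals of 6 months, with Y6M replicate 3 lowest but still above every 4-year library. miR-136-y, with 2638, 2031 and 1956 against 392, 382 and 414 CPM, varied less (-2.48 ± 0.15, adjusted p = 1.32e-06). The steepest fall of the locus was miR-665-x, with 65.6, 28.3 and 38.3 CPM at 6 months and 0.128, 0.111 and 0.301 CPM at 4 years (-7.88 ± 0.52). miR-665-x and other low entries of the locus, such as miR-485-y (0.658 CPM at 4 years), passed the filter on low counts only through the 6-month libraries. In the miR-30 family 9 of 10 tested entries were lower and 1 not called (median -0.86), with bta-miR-30c falling most, from 8626, 6077 and 8682 to 1582, 1707 and 1758 CPM.

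miR-202 is a miRNA of the gonads, made in Sertoli and other gonadal cells. Its 5p arm, bta-miR-202, was the twelfth most abundant entry at both ages and was not called: 28718, 20554 and 25932 CPM at 4 years and 25143, 21948 and 28231 CPM at 6 months (0.00 ± 0.16, adjusted p = 0.99). The entry miR-202-y, which pairs with it as the 3p arm, fell from 1051, 955 and 1186 CPM to 185, 165 and 180.4 CPM (-2.59 ± 0.14, adjusted p = 6.65e-07). The log2 ratio of 3p to 5p was -4.58, -4.52 and -4.57 in the 6-month libraries and -7.27, -6.95 and -7.16 in the 4-year libraries, a difference of -2.57 ± 0.15 (limma, adjusted p = 6.61e-07), the smallest p of the arm pairs. The sequence of miR-202-y also stands in the table as miR-282-x, which had 962 ± 108 CPM at 6 months and 153 ± 8.99 CPM at 4 years.

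Other hairpins shifted between arms too. Arms were paired by name and by their power to form a duplex, and the ratio of 3p to 5p (log2 of CPM + 1) was compared with limma for the 65 pairs with a mean of at least 5 CPM in both arms, a comparison chosen after the values were seen. The ratio differed in 31 pairs (47.7%), 10 with a higher (15.4%) and 21 with a lower (32.3%) share of the 3p arm at 4 years. In 35 pairs both arms were called in the same direction and in 5 pairs in opposite directions. bta-miR-93 rose while miR-93-y fell (7.33 ± 0.984 to 3.32 ± 0.907 CPM), a ratio difference of -2.14 ± 0.20 (adjusted p = 1.43e-05). bta-miR-151-5p rose from 16459 ± 1084 to 21641 ± 2069 CPM while bta-miR-151-3p fell from 761 ± 85 to 502 ± 18.4 CPM (-0.99 ± 0.15), and the call of bta-miR-151-5p was lost without Y4Y replicate 1. For miR-23b the 3p arm is the abundant one and rose (0.39 ± 0.11), while bta-miR-23b-5p fell (-1.54 ± 0.24). bta-miR-17-5p rose (0.58 ± 0.14) and miR-17-y fell (-0.49 ± 0.17, adjusted p = 0.0275), the latter a call lost without Y4Y replicate 2, Y4Y replicate 3, Y6M replicate 1 or Y6M replicate 3. The fifth pair, miR-10174, has the sequence of miR-23b with 1 added base in each arm. Its 3p arm had 1709.8 CPM at 6 months and 2242.6 CPM at 4 years, against 1709.1 and 2242.2 CPM for bta-miR-23b-3p. The 3p arms of miR-10174 and miR-23b thus rest on nearly equal counts and are not separate results, although both pairs are counted.

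**Figure D4:**
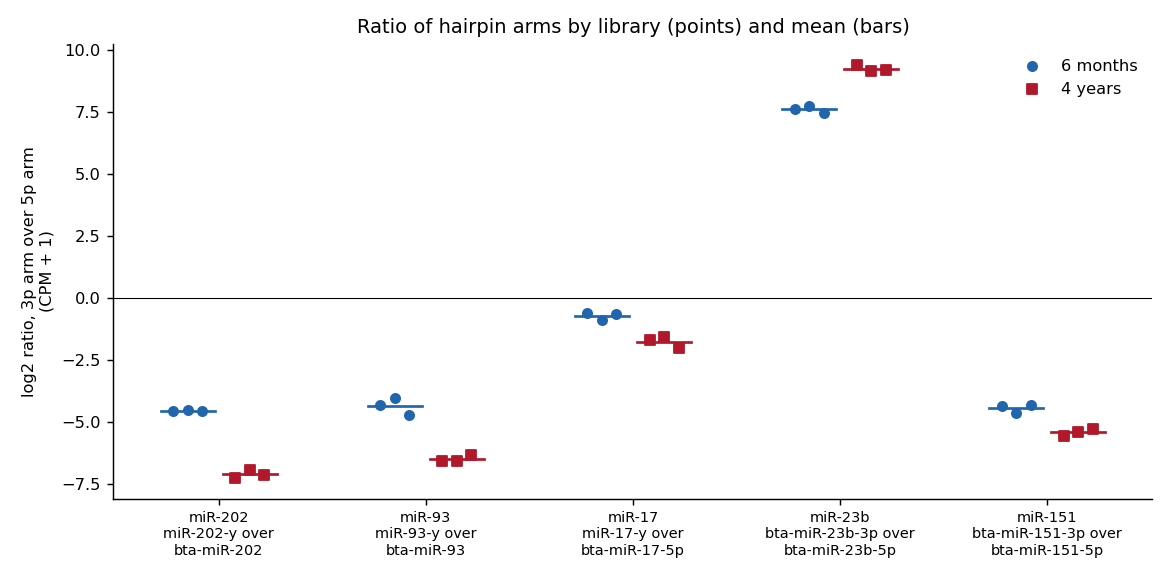
log2 ratio of the 3p to the 5p arm, from CPM + 1 (y axis), in each small RNA library for 5 hairpins (x axis), with circles for 6 months, squares for 4 years and bars at the means. The ratio of miR-202 lay between -4.58 and -4.52 at 6 months and between -7.27 and -6.95 at 4 years, and that of miR-23b was higher at 4 years. The 5 were picked by the p of their ratio or by opposite calls of their arms. That the ages do not overlap in them is therefore no separate result.

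The table also lists longer forms of many miRNAs as entries of their own, and these did not always follow the shorter form. In 66 pairs 1 entry is the other with 1 to 3 bases added at the 3′ end and the abundances allow a comparison, which was chosen after the values were seen. The log2 ratio of the longer to the shorter form differed in 35 pairs (53%), 27 with relatively more of the longer form at 4 years (40.9%) and 8 with less (12.1%). Several pairs share a short form, as 3 of the 8 share bta-miR-339b. Of the 24 pairs in which the added bases are all A, or 1 G followed by A, 12 shifted to the longer form and 1 to the shorter (median difference 0.3). Of the 9 pairs with only T added, 4 shifted to the longer form and 1 to the shorter (median 0.36). Of the 33 other pairs the numbers were 11 and 6 (median -0.07). Whether the shift differs between the kinds of added bases was not tested. Both pairs below show the added bases at the right end.
bta-miR-18a: tAAGGTGCatctagtgcagata
miR-18-x: tAAGGTGCatctagtgcagataga
bta-miR-194: tGTAACAGcaactccatgtgga
miR-194-x: tGTAACAGcaactccatgtggaaa
The log2 ratio of miR-18-x to bta-miR-18a was -1.01, -1.21 and -0.85 at 6 months and 0.85, 1.00 and 1.09 at 4 years, so the longer form went from the minor to the major one (difference 2.00 ± 0.12, limma adjusted p = 6.68e-05). miR-194-x rose from 1.76 ± 0.594 to 23.5 ± 1.55 CPM while bta-miR-194 rose less, from 138 ± 13.2 to 208 ± 19.7 CPM (ratio difference 2.58 ± 0.14). For miR-19b and miR-20a the forms with AA added rose (2.82 ± 0.31 for miR-19-y and 3.17 ± 0.30 for miR-20-x) while bta-miR-19b fell and bta-miR-20a was not called (-0.05 ± 0.12). miR-202-z, which is miR-202-y with ACC added, rose from 3.04 ± 0.295 to 14.9 ± 4.62 CPM against the fall of miR-202-y. The shifts to the shorter form in the miR-34 and miR-449 family rest on longer forms with 0 to 2 counts at 6 months. Whether the added bases are encoded in the genome was not tested.

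miRNAs known from other cell types were followed as markers. The vascular miRNA miR-126 had 4 of 4 tested entries higher (median 0.67), with bta-miR-126-3p at 7417 ± 653 CPM at 6 months and 10285 ± 1801 CPM at 4 years, but 2 of the 4 calls were lost without Y4Y replicate 1, Y4Y replicate 2 or Y6M replicate 1. None of the 6 tested erythrocyte entries (miR-451, miR-144, miR-486) was called in edgeR (summed 579 ± 220.3 CPM at 6 months and 355 ± 112 CPM at 4 years), although 3 had an unadjusted p under 0.05, DESeq2 called 1 lower, and 4 were lower without Y6M replicate 3. Of 7 leukocyte entries 3 were lower. These calls rested on single libraries. bta-miR-142-5p, of blood cells, had 4995, 2390 and 1134 CPM at 6 months and 1175, 1249 and 1191 CPM at 4 years, and Y6M replicate 3 lay within the range of 4 years. Without Y6M replicate 1, Y4Y replicate 2 or Y4Y replicate 3, 0 of the 7 were called in edgeR, and without Y6M replicate 3, 5 were lower. The muscle miRNAs bta-miR-1 (52.3, 119 and 32.1 to 349, 325 and 317 CPM) and bta-miR-133a (5.23 ± 2.99 to 32.3 ± 7.15 CPM) were higher and bta-miR-499 lower (-1.32 ± 0.30), with 4 of the 6 muscle entries higher and 2 lower (1 lower without Y4Y replicate 2 or Y6M replicate 3). Of 14 neuronal entries 10 were higher and 4 not called. Higher were for example bta-miR-9-5p (8.52, 15.5 and 6.74 to 88.1, 96.8 and 106 CPM) and bta-miR-124a (14 ± 3.8 to 57.6 ± 9.46 CPM). The 14 entries hold 13 sequences, since bta-miR-124a and bta-miR-124b are counted apart with equal values. The 10 are all forms of miR-128, miR-9, miR-124 and miR-338, so they are not separate markers. One of them, miR-9-x (0.0901 CPM at 6 months), passed the filter on low counts only through the 4-year libraries. The liver miRNA bta-miR-122 had 13.2, 11 and 2.86 CPM at 4 years and 3.38, 4.03 and 3.77 CPM at 6 months, the ages overlapped, and its call was lost without Y4Y replicate 1, Y4Y replicate 2 or any Y6M replicate. Of the 4 leukocyte marker genes in the long RNA libraries 3 were lower, with PTPRC at 29.6 ± 15.4, CD3E at 26.2 ± 15.2 and CD3G at 14.5 ± 8.55 CPM at 6 months and at 5.77 ± 0.527, 3.57 ± 0.605 and 2.19 ± 0.65 CPM at 4 years. The fourth, the monocyte gene CD14, was higher, at 3.53 ± 0.725 CPM at 6 months and 30.9 ± 1.18 CPM at 4 years (3.13 ± 0.19). Of the erythrocyte genes HEMGN was higher (0.0412 ± 0.0713 to 99.8 ± 27.6 CPM), HBA was not called, and HBB and ALAS2 were too low to test.

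Many miRNAs lie in introns of protein genes, and the long RNA libraries of the same ages give the level of those host genes. Host pairs were taken from textbook positions in mammals, not from a yak annotation. For 53 pairs with 44 host genes both were tested. They include miR-214 with DNM3, although miR-214 comes from an antisense transcript. DNM3 was not called, so this pair enters neither count of shared or opposite calls below. Of 16350 genes tested 13243 (81%) were called, 6882 higher (42.1%) and 6361 lower (38.9%). In 17 pairs miRNA and host were called in the same direction, 7 higher and 10 lower, and in 4 in opposite directions. The strongest shared rise was miR-449a with CDC20B, a gene of ciliated and germ cells, which went from 0.0933 to 14.1 CPM (7.18 ± 0.49). miR-15b rose with SMC4, a condensin subunit (1.53 ± 0.14), and miR-483 fell with IGF2, the growth factor gene that hosts it (bta-miR-483 -2.03 ± 0.27, IGF2 -3.36 ± 0.14). These 3 pairs were picked after their values were seen.

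The pairs in opposite directions were small on the miRNA side. bta-miR-126-3p was higher (0.47 ± 0.15) with EGFL7, an endothelial gene, lower (-1.35 ± 0.20). bta-miR-224 was higher (0.66 ± 0.15) with the receptor subunit gene GABRE lower (-2.22 ± 0.34). bta-miR-32 (0.39 ± 0.15) was higher with TMEM245 lower (-0.81 ± 0.16), and bta-miR-23b-3p higher with AOPEP lower (-1.45 ± 0.15). Without Y4Y replicate 1 the calls of bta-miR-126-3p, bta-miR-32 and bta-miR-23b-3p were lost, as was that of bta-miR-32 without Y6M replicate 3, and bta-miR-224 lost its call in the fit of 9 libraries. Among the most abundant intronic miRNAs, bta-miR-27b and bta-miR-152 were not called although their hosts AOPEP and COPZ2 (-2.43 ± 0.15) were lower, bta-miR-30e-5p was lower (-0.87 ± 0.14) with NFYC not called, bta-miR-191 higher (0.77 ± 0.12) with DALRD3 not called, and bta-miR-151-5p higher with PTK2 higher (0.32 ± 0.10, a call lost without Y6M replicate 1). NFYC was called without Y4Y replicate 3. bta-miR-335 rose (1.27 ± 0.19) while its imprinted host MEST was at -0.57 ± 0.28 (adjusted p = 0.0842), called only without Y6M replicate 2 or Y6M replicate 3 among the libraries left out.

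**Figure D5:**
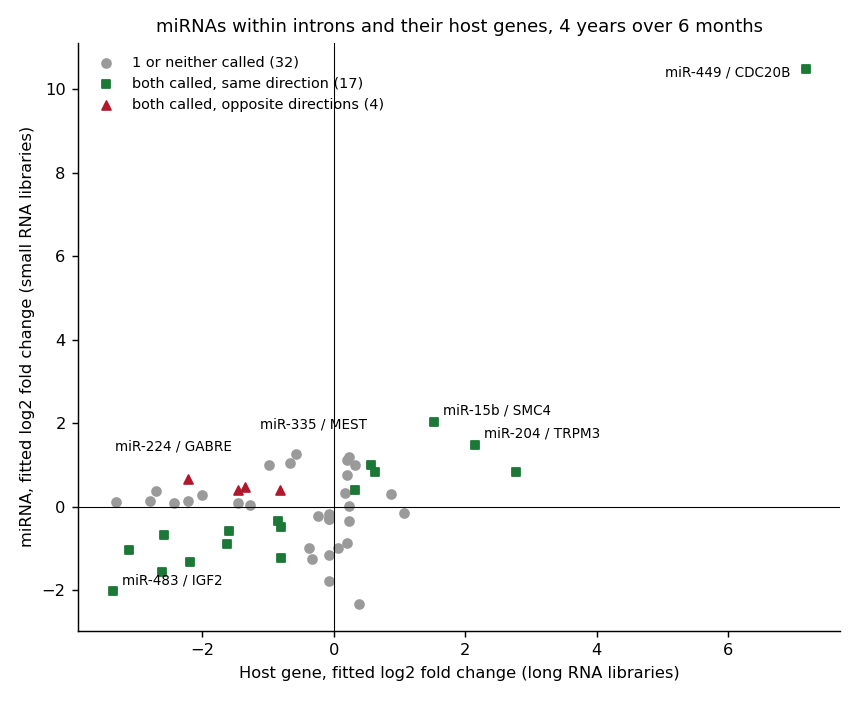
Fitted log2 fold change, 4 years over 6 months, of 53 miRNAs (y axis, small RNA libraries) against that of their host genes (x axis, long RNA libraries), with squares where both were called in the same direction, triangles where they were called in opposite directions and circles otherwise. miR-449a with CDC20B lies far to the upper right, and the 4 pairs in opposite directions lie within 1 log2 unit of 0 on the miRNA axis. The circles include miR-214 with DNM3, to which the miR-214 transcript is antisense.

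Genes that make and use miRNAs were called in both directions, and their counts are to be read against the 81% of all tested genes that were called. Of 7 processing genes 1 was higher, 4 lower and 2 not called: XPO5, which carries precursors out of the nucleus, rose from 35 ± 3.92 to 161 ± 20.3 CPM (2.20 ± 0.14), and DROSHA fell from 13.9 ± 1.17 to 9.37 ± 0.472 CPM (-0.57 ± 0.16), a call lost when scaled by library size alone. Of the Argonaute genes AGO2 was higher (0.74 ± 0.10) and AGO1, AGO3 and AGO4 were lower (-0.99 ± 0.11, -1.70 ± 0.18 and -2.66 ± 0.14). With the GW182 proteins, their partners in silencing, 1 of 7 genes was higher, 4 were lower and 2 not called (median -0.95). Of 7 tested genes of let-7 control and miRNA turnover 2 were higher, LIN28B and ZSWIM8 (1.46 ± 0.10), a ligase adaptor for miRNA decay, 2 were lower and 3 not called.

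The class with serial numbers was rare at both ages. Over all its 261 entries, tested or not, it held 0.262%, 0.288% and 0.268% of the miRNA counts in the 4-year libraries and 0.064%, 0.0606% and 0.0531% in the 6-month libraries. Every 4-year library was above every 6-month library. Of the 261 entries 148 had a count at both ages, 106 at 4 years only and 7 at 6 months only. In class exist 527 of 558 had a count at both ages, 18 at 4 years only and 13 at 6 months only, and in class known the numbers were 572, 122 and 22 of 717. Only 76 of the serially numbered entries, with 64 different sequences, could be tested, 22 of them without a count at 6 months. Such entries passed the filter through the 4-year libraries alone, so the calls in this class (59 higher, 3 lower and 14 not called) do not describe the class. Of the tested entries 64.5% were 21 to 24 bases long, against 92.7% of class exist and 77.0% of class known. Sequences of this class are shown with their seeds if called with at least a 2-fold change, no overlap of the ages and a mean of at least 10 CPM. Of those that met these conditions, the 2 with the smallest p among those that rose and the only 1 that fell are given.
First higher: tGAGCACAcctgcctgagcaga
Second higher: tGGTGACGtctgtggagcc
Lower: aTACAAGGacaatttctttct
The first of these had 209, 179 and 189.8 CPM at 4 years and 0.946, 1.14 and 1.08 CPM at 6 months (7.49 ± 0.21, adjusted p = 8.84e-09). The second had 121, 121 and 159 CPM at 4 years and 0.406, 0.103 and 0 CPM at 6 months, where it rested on 4 counts. The sequence that fell had 27.7, 22.2 and 17.2 CPM at 6 months and 4.36, 6.57 and 4.52 CPM at 4 years (-2.11 ± 0.26). The ages did not overlap for any of the 3, which was a condition of the choice. The 2 that rose passed the filter on low counts only through the 4-year libraries. Whether these entries come from miRNA hairpins or from other small RNAs was not tested.

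The listed miRNAs made up a smaller part of the library totals that the authors scaled by at 4 years, 82.3% ± 0.35, than at 6 months, 87.4% ± 0.65 (SD, n = 3). The difference of -5.03 percentage points had p = 0.1 in an exact two-sided permutation test over 20 groupings, the smallest p this design allows. The 10 most abundant entries of each library held 54% ± 1.15 of the counts at 4 years and 56.8% ± 0.71 at 6 months (exact permutation p = 0.1). This difference of -2.83 percentage points rested on the number of entries taken: it was -0.13 with the 5 and 0.03 with the 20 most abundant entries (exact permutation p = 1 for both). In the authors' deposited table of this comparison 676 entries are listed, 440 higher and 236 lower at 4 years. The smallest change in that list is 1.00 on the log2 scale, and its largest FDR is 0.0903, from a test that no header names. Calls here were at an adjusted p under 0.05 without a fold limit, so the 2 lists differ in threshold. They also rest on the same libraries. Negative log2 values in the authors' list were read as higher at 4 years. Of its entries 454 were tested here. Of these 451 were called, all in the direction of the authors' deposited table, which is 66.7% of the authors' list and 74.8% of the calls made here.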

How the data were processed

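Small RNA of testis was sequenced from 3 yaks per age. Per the file headers, the authors deposited raw counts per miRNA entry and TPM values, whose constant implies a library total above the listed miRNAs, and estimated counts per gene for the long RNA libraries. The authors' deposited table of this comparison gives log2 fold changes and p-values with FDR, with a test that no header names. Tools named without a role, per the submitters' processing notes, are HISAT2 2.1.0, StringTie 1.3.4 and fastp 0.18.0, with the build UMD3.1. How small RNA reads were aligned and counted is not given in the sources used here.

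Counts of the 6 libraries (estimated counts rounded) were filtered with filterByExpr, TMM-scaled and tested with edgeR 4.0.16 (quasi-likelihood F-test, R 4.3.3), with Benjamini-Hochberg adjustment over all 853 miRNA entries or 16350 genes. Entries left out (683) held 0.0242% of the counts. p-values measure the spread between these animals. A floor is 3 counts, and intervals and floors cover counting error only. Ratios of arms and of nested forms used log2 (CPM + 1) and limma 3.58.1, for pairs with a mean of at least 5 CPM, and arms paired at least 13 bases in ViennaRNA 2.7.2. Named miRNAs are those with the smallest p in each direction (8 each, at least 2-fold, no overlap, mean of at least 10 CPM), the 10 most abundant at each age, the leading members of each list, hairpins and seeds called in both directions, and host pairs called in opposite directions or with abundant miRNAs; other names were chosen after their values were seen. Members and lists were chosen with earlier results of these data known. Alternatives used RLE factors, library size alone, the authors' total, other filters, 9 libraries, a replicate block, DESeq2 1.42.0 and each library left out. 1 host pair is not reported here. Scripts were tested on simulated data. Two-sided exact permutation tests used scipy 1.17.1.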

Additional observations from a re-analysis of the deposited data

How the results depend on the processing

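Only entries with a mean of at least 10 CPM, of which 457 were tested, gave 184 higher and 180 lower, against 327 and 276 of 853. The calls were thus nearly even in direction among these more abundant entries, and the excess of higher calls lay among entries of lower CPM. Under the other settings the calls numbered 307 to 473 higher and 242 to 279 lower, the upper end without a filter (473 higher and 279 lower), and 310 to 346 higher and 245 to 277 lower when 1 library was left out. Scaling by library size alone moved the median change from 0.06 to 0.24 and gave 353 higher and 242 lower. The replicate numbers were not taken to pair the animals. For miRNAs the same-numbered libraries correlated at -0.02, 0.06 and 0.05 in their deviations from the age means. Replicates 2 and 3 matched their own number best, and replicate 1 matched number 2. With 3 libraries per age such values cannot decide whether the numbers mark pairs. A replicate block gave 307 higher and 263 lower miRNA entries, and 6758 higher and 6172 lower genes. Of the 140 single results named, 1826 of 1914 recomputed values kept their direction and their side of the threshold. bta-miR-202, which was not called, changed sign: 0.06 with RLE factors, 0.17 with library size alone, 0.08 with the authors' total, 0.08 with no filter, 0.11 at a mean of at least 10 CPM, 0.04 in DESeq2, 0.05 with identical sequences merged and -0.14 to 0.20 with 1 library left out. bta-miR-20a, also not called, came to 0.01 with RLE factors, 0.11 with library size alone, 0.03 with the authors' total, 0.03 with no filter, 0.06 at a mean of at least 10 CPM and -0.10 to 0.03 with 1 library left out. bta-let-7a-5p came to 0.00 with library size alone and bta-miR-25 to -0.00 with 9 libraries, and neither was called. miR-196-y, not called, came to -0.08 to 1.15 with 1 library left out. The difference in the share of the most abundant entries was -0.13 percentage points with 5 entries and 0.03 with 20; the cause was not tested. DICER1 and bta-miR-99a-5p lost their calls under several settings. Arm pairs gave 8 to 12 higher and 20 to 22 lower, and nested pairs 23 to 31 higher and 6 to 10 lower, with pseudocounts of 0.5 or 5 CPM or 1 library left out. Depth limits entries near 3 counts, where only bounds are given.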

Other observations

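The ruminant family of miR-2284 and miR-2285, which has many copies in cattle, was mostly not called: of 40 tested entries (79 listed) 11 were higher, 4 lower and 25 not called, with a median change of 0.19, and 7 were higher without Y4Y replicate 1 or Y6M replicate 2, and 2 lower without Y4Y replicate 1, Y4Y replicate 3, Y6M replicate 1 or Y6M replicate 2. The clusters of miR-23, miR-27 and miR-24 leaned upwards, with 10 of 16 tested entries higher, 1 lower and 5 not called (median 0.42), but 6 were higher without Y4Y replicate 1. In the epithelial miR-200 family 2 of 6 tested entries were lower and 4 not called (median -0.25; 0 lower in edgeR without Y4Y replicate 2, 1 without Y4Y replicate 3 or Y6M replicate 2), and the summed level was 324 ± 115 CPM at 6 months and 217 ± 50.7 CPM at 4 years (SD, n = 3).

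Seeds outside the families above also mixed directions. The seed TCAAGTA of miR-26 had 1 entry higher, 2 lower and 2 not called, and bta-miR-26a held 98.8% of its summed level at 6 months and 98.2% at 4 years. The seed GCAGCAT of miR-103 had 1 higher, 2 lower and 2 not called, and its sum was 1149 ± 45.4 CPM at 6 months and 1293 ± 38.1 CPM at 4 years. The seed TTGGCAC, carried mainly by bta-miR-1271, had 2 higher and 1 lower.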
